A study of Mus musculus with 9 samples.

Results

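The 10 genes described here are feedback inhibitors and ETS transcription factors taken as a readout of FGF-ERK signalling: Spry1, Spry2, Spry4 and Spred1, Dusp4, Dusp6 and Dusp9, Etv4 and Etv5, and Il17rd. ERK activity itself was not measured in these libraries. The 10 genes were taken by symbol from 24736 genes in the table, and all 10 were measured and tested. The 9 libraries came from mouse caudal epiblast-like cells (CEpiLC), made from embryonic stem cells (ESC) by 48 h in N2B27 medium with 10 ng/ml bFGF and 5 uM of LGK974, which blocks WNT secretion, followed by the same medium with the WNT agonist CHIR99021 to 72 h. Of these, 3 libraries were wild-type (WT), 3 were Cdx1/2/4-/- (CdxKO) and 3 were T/Bra-/- (T/BraKO). All groups therefore received the same recombinant FGF and CHIR99021. The WT line was the XY HM1 TetON line, from which the study derived its ESC lines, and the labels give 1 line for each genotype, so that line and genotype cannot be told apart. The ESC were grown on fibroblast feeders that were removed by plating before differentiation.

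FGF ligands bind receptor tyrosine kinases such as FGFR1 and activate the RAS-RAF-MEK-ERK cascade. ERK phosphorylation of ETS factors raises transcription of Etv4 and Etv5, which are ETS factors themselves, and of inhibitors that close negative feedback loops. Sprouty and SPRED proteins act on RAS and RAF, the DUSP proteins are phosphatases that remove phosphate from ERK and related kinases, and Il17rd (Sef) is a transmembrane inhibitor of FGF signalling. Fgf8 and Fgf4 are transcribed in the primitive streak, and FGF signalling is needed there for the caudal epiblast to be kept and for mesoderm to leave it.

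The checks of the targeted genes and of the cell type were as follows. T, the gene targeted in T/BraKO, had 10900 to 14760 normalised counts (counts divided by the DESeq2 size factor of the library) in the WT libraries, 6285 to 19806 in those of CdxKO and 1777 to 2894 in those of T/BraKO, where it fell by 2.42 on the log2 scale (adjusted p = 7.8e-10). Of the genes targeted in CdxKO, Cdx4 was at 1.25 to 1.88 normalised counts against 60.0 to 160.9 in WT, Cdx2 at 706 to 1625 against 2699 to 6106 and Cdx1 at 193 to 320 against 444 to 626, so that transcripts of Cdx1 and Cdx2 were still counted in CdxKO. The summed level of 8 caudal epiblast markers lay between 1483 and 2426 TPM, a level scaled by transcript length and library, over the 9 libraries, against 1.35 to 11.4 for 4 neural markers, 3.89 to 23.8 for 4 endoderm markers and 33.0 to 77.9 for 7 feeder fibroblast markers. The caudal sum was carried by Pou5f1 (880 TPM in WT and 1241 in T/BraKO, as means), and 3 of its 8 genes were lower than in WT in each mutant, with the block 5 lower and 1 higher in CdxKO and 3 lower and 3 higher in T/BraKO. T went from a mean of 431 to 78.9 TPM in T/BraKO and Cdx2 from 141 to 34.5 TPM in CdxKO. The 5 paraxial mesoderm markers summed to 26.0 to 46.9 TPM in the WT libraries, 14.4 to 64.5 TPM in those of CdxKO and 4.40 to 6.03 TPM in those of T/BraKO. Total counts were between 25124337 and 34705355 per library.

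Because the genes were read out together, the promoters of 3 of them are shown, 2 whose transcripts varied together between libraries (Dusp6 and Spry2) and 1 whose transcript did not (Spry1). RefSeq promoters (GRCm38.p6) were matched for 6 of the 10 genes in 7 windows of 250 bases before to 50 bases after the start site, of which the 250 upstream bases are printed 5′ to 3′ on the gene's strand. Capitals mark GGAA or its reverse complement, the core letters that ETS factors read. These core letters were added after the longer letters given below had no match in the 7 windows. The 3 printed promoters were chosen with the expression values known, so their core counts carry no test. The windows are chr10:99262981-99263230 (plus strand) for Dusp6, chr14:105896820-105897069 (minus strand) for Spry2 and chr3:37639697-37639946 (plus strand) for Spry1.
Dusp6: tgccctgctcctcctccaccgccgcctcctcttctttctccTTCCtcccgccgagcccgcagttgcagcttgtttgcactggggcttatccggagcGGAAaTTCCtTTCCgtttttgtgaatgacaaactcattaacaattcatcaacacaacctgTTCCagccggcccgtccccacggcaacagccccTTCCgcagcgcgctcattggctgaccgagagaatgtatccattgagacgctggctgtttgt
Spry2: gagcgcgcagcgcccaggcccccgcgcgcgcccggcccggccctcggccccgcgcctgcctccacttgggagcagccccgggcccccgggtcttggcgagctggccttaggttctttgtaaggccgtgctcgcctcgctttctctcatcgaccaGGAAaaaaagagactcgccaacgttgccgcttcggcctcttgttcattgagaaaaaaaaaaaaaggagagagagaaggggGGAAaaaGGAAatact
Spry1: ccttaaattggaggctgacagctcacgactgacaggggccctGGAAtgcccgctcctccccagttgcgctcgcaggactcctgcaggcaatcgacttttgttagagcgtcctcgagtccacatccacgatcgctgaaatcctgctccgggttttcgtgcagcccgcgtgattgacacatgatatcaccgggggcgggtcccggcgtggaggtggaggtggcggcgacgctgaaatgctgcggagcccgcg
The Dusp6 window of 300 bases held 6 cores, that of Spry2 5 and that of Spry1 1, with a median of 3 over all promoters. GGAA stood in 96.0% of the 32851 promoters, so the letters are common. The windows of Spred1 and Il17rd held 5 and 4 cores, and those of the 2 Etv5 start sites 6 and 0. The longer ETS letters CCGGAAG stood on either strand in 8.86% of all promoters and in none of the 7 windows. The letters ACCGGAA, which overlap them, stood in 3.72% of all promoters and again in none of the 7. The letters CAGGAAG stood in 13.3% and in 0 of 7. The AP-1 letters TGANTCA stood in 7.81% and in 0 of 7. No promoter is shown for Dusp4, Dusp9, Etv4 and Spry4.

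In WT, the phosphatase genes Dusp4 and Dusp6 had the highest mean levels per transcript length and Spry1 the lowest. Dusp4 had 150 ± 38.2 TPM (SD, n = 3) and Dusp6 106 ± 38.6, followed by Etv4 at 78.2 ± 43.6, Spred1 at 77.2 ± 14.5, Etv5 at 74.7 ± 35.3 and Spry2 at 70.6 ± 27.9 TPM. Il17rd had 44.5 ± 10.6, Spry4 21.6 ± 15.9, Dusp9 18.1 ± 3.11 and Spry1 14.03 ± 0.181 TPM. Of the 9 pairs of neighbours in this order, only Dusp9 and Spry1 had TPM ranges that did not overlap, since most of the genes varied widely between WT libraries. Within each library Dusp4 was nonetheless above Dusp6, Dusp6 above Etv4, Spry2 above Il17rd and Il17rd above Spry4 in all 3, while the order of Etv4, Spred1, Etv5 and Spry2 changed from library to library. Spry1 was the lowest of the 10 in the libraries numbered 1 and 3 alone, since Spry4 was at 5.82 TPM against 13.84 for Spry1 in the library numbered 2.

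For 8 of the 10 genes, taken gene by gene, the fold change of the libraries numbered 3 over those numbered 2 was larger than the gene's own fold change in any comparison of genotypes. In WT, Spry4, a Sprouty gene, had 1372, 372 and 2499 normalised counts in the libraries numbered 1, 2 and 3. The same gene had 1527, 317 and 2427 in CdxKO, and 1471, 636 and 2967 in T/BraKO. The library numbered 2 was the lowest and that numbered 3 the highest in each of the 3 groups, 6.71-fold apart in WT, 7.66-fold in CdxKO and 4.67-fold in T/BraKO. Etv4 followed the same order, with 2735, 1009 and 3899 in WT, 3026, 1219 and 4106 in CdxKO, and 3506, 1716 and 5334 in T/BraKO. Etv5 had 4124, 2041 and 5988 in WT, 4899, 1997 and 6143 in CdxKO, and 4883, 3350 and 7083 in T/BraKO. Spry2, which restrains RAS activation, had 2041, 1215 and 2906 in WT, 2132, 970 and 3111 in CdxKO, and 1985, 1610.2 and 3457 in T/BraKO. The 4 genes thus took the same order of libraries in all 3 groups.

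Dusp6, the cytoplasmic ERK phosphatase, had 4482, 2460 and 5572 in WT, 6324, 2113 and 8020 in CdxKO, and 3998, 2883 and 5767 in T/BraKO. Dusp4, a nuclear phosphatase, had 5489, 3570.1 and 6215 in WT, 6265, 3098 and 7806 in CdxKO, and 4041, 2363 and 5078 in T/BraKO. Spred1 and Il17rd were also lowest in the library numbered 2 of each group, with highest-to-lowest ratios of 1.40 to 1.74 and 1.45 to 2.07. Spry1 and Dusp9 stood outside this order. Spry1 had 429, 418 and 440.0 in WT, 419, 427 and 480 in CdxKO, and 451, 487 and 471 in T/BraKO, so that its libraries were within 1.15-fold of each other in every group. Altogether 8 of the 10 genes were lowest in the library numbered 2 of all 3 groups, against 25.9% of the 12316 genes with a mean of at least 50 normalised counts. The median ratio of the highest to the lowest library over the 10 genes was 2.00 for WT, 2.80 for CdxKO and 2.06 for T/BraKO, against 1.24, 1.23 and 1.24 over those 12316 genes.

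**Figure D1:**
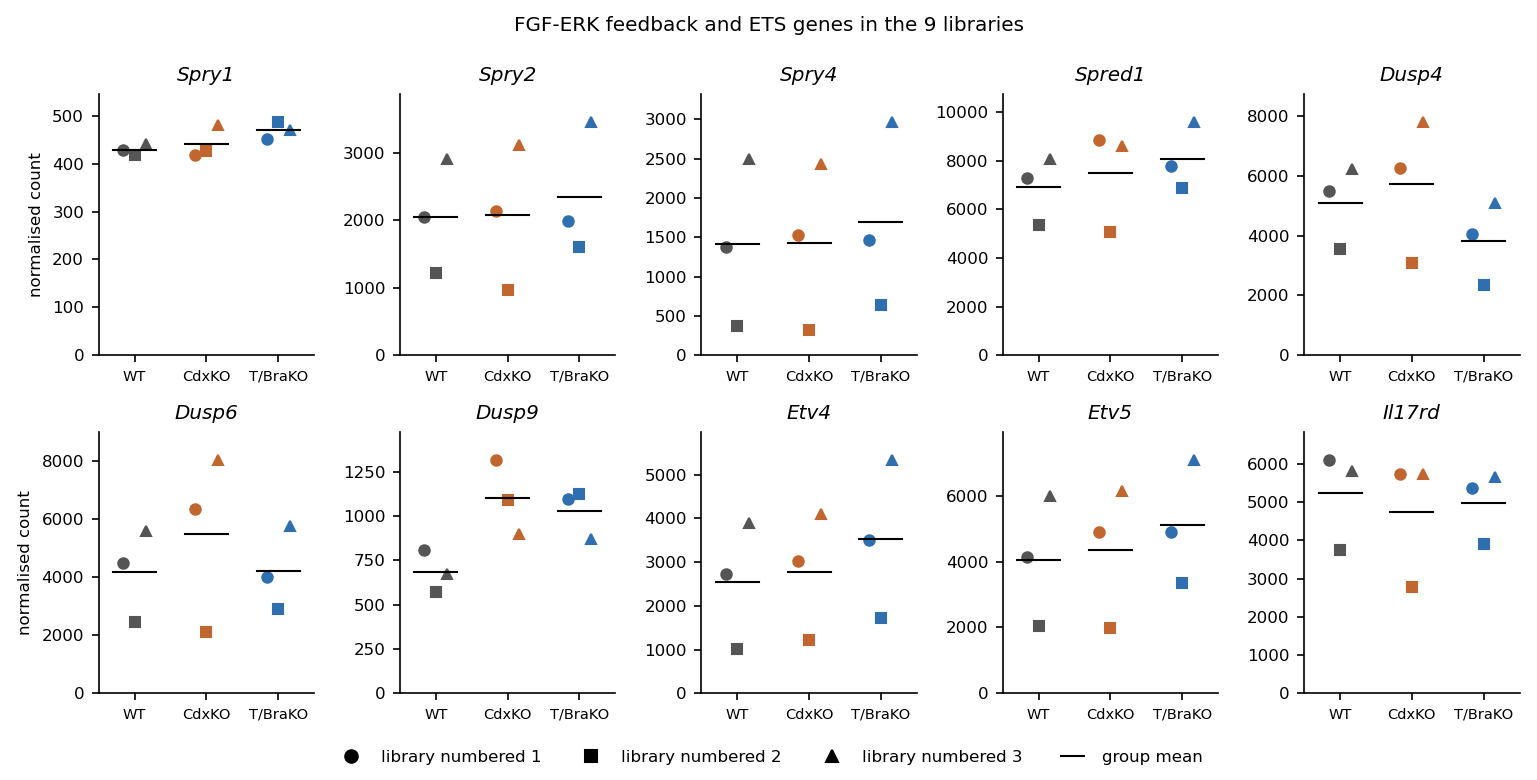
Normalised counts of the 10 genes (y axis, linear from 0) in each of the 9 libraries, grouped by genotype, with the marker giving the number of the library and the bar the group mean. For 8 genes the square, the library numbered 2, is the lowest of its group in all 3 groups, and Spry1 and Dusp9 are the exceptions.

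The same-numbered libraries were then compared across numbers, with genotype as a block over the 9 libraries (DESeq2 Wald test, adjusted over all genes). The libraries numbered 1 were above those numbered 2 for 8 of the 10 genes, against 16.6% of the 14215 genes tested, and those numbered 3 were above those numbered 2 for the same 8 genes, against 21.8% of 14936. Across the 8 genes, number 3 stood above number 2 by 0.61 to 2.61 on the log2 scale, while the genotype fold changes of these 8, with or without the replicate number as a block, were at most 0.58 in size. Spry4 was 3.42-fold higher in number 1 (log2 1.78 ± 0.22 SE, adjusted p = 1.5e-13) and 6.12-fold higher in number 3 (log2 2.61 ± 0.22, adjusted p = 1.1e-29). Etv4 was 2.39-fold and 3.42-fold higher, with adjusted p of 1.4e-54 and 8.7e-113. Spred1 moved least among the 8, at 1.39-fold and 1.52-fold. Spry1 differed by -0.03 and 0.06 on the log2 scale and Dusp9 by 0.24 and -0.15, with adjusted p between 0.0982 and 0.860. edgeR with the same block called the same 8 genes in both comparisons, with adjusted p between 2.2e-09 and 0.000850. These libraries were chosen for comparison with their values known, and the labels do not say what libraries of 1 number share. Each number stands for 1 set of libraries, 1 of each genotype. The p-values of both tools therefore measure how alike the difference was across genotypes, and not the spread that further numbers would show. With the libraries of any 1 genotype left out, all 8 were called again in both comparisons, except that without WT Spry2 and Dusp6 were lost in number 1 against 2 (adjusted p = 0.1007 and 0.0901).

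**Figure D2:**
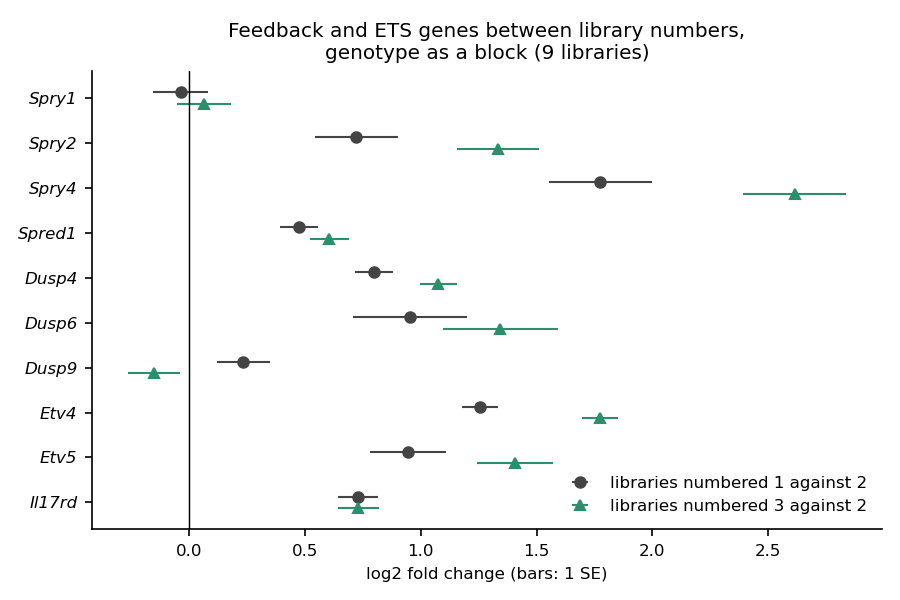
Log2 fold change (x axis) of each gene in the libraries numbered 1 (circles) and 3 (triangles) against those numbered 2, from a fit over 9 libraries with genotype as a block, with bars of 1 SE. Spry4 stands farthest from 0, at 1.78 and 2.61, and Spry1 and Dusp9 lie closest to it.

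Other genes of the pathway went in both directions with the library number. Of the 108 genes of 5 pathway lists, 91 had an adjusted p in number 1 against 2. Among them 32 were higher and 8 lower, against 16.6% and 13.8% of all genes, so these calls leaned higher. In number 3 against 2, 28 were higher and 28 lower of 94, against 21.8% and 20.1% of all genes, with a median log2 fold change of 0.0008. By list, of the genes with an adjusted p in that comparison, 5 of 25 transduction genes were higher and 9 lower. The other ETS genes had 3 of 20 higher and 7 lower, and the other feedback genes 6 of 15 higher and 4 lower. Of the ligand and receptor genes, 4 of 15 were higher and 2 lower. The list of 19 immediate early genes includes some that ERK induces within minutes of stimulation. Of the 19, 9 were higher and 2 lower in number 1 than in number 2, and 10 were higher and 6 lower in number 3. The 6 were Jun, Jund, Fosl2, Ier3, Atf3 and Klf10, at -0.54, -0.46, -0.47, -0.60, -0.86 and -0.68 on the log2 scale, and Jun and Klf10 were the 2 lower in number 1. Klf10 had 3365, 5729 and 3325 normalised counts in WT, 3353, 5451 and 3541 in CdxKO, and 3395, 5049.5 and 3239 in T/BraKO, highest in number 2 of every group. Egr1 had 3037, 1815 and 4409 normalised counts in WT, 3637, 1871 and 4002 in CdxKO, and 3453, 3022 and 4786 in T/BraKO. Myc had 556, 197 and 888 in WT, 890.4, 280.4 and 1156 in CdxKO, and 824, 612 and 1554 in T/BraKO. Klf10, Egr1 and Myc were shown with their values known.

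Marker sums also differed by number, though single markers of a list did not all follow the order of its sum. The 6 naive pluripotency markers summed to 18.0, 40.2 and 24.4 TPM in WT, 24.5, 43.4 and 28.4 in CdxKO, and 19.9, 38.3 and 22.5 in T/BraKO, highest in the library numbered 2 of each group and with none of the markers at or under 3 counts throughout a group. The 8 caudal epiblast markers summed to 1929, 1867 and 2322 TPM in WT, 1951, 1483 and 2329 in CdxKO, and 2086, 1935 and 2426 in T/BraKO, lowest in number 2. The sum of the 4 endoderm markers was lowest in number 2 and highest in number 3 of every group. It was 11.8, 10.3 and 17.0 TPM in WT, 16.2, 8.37 and 23.8 in CdxKO, and 8.76, 3.89 and 11.3 in T/BraKO. Of these markers, Sox17 and Cxcr4 were instead highest in number 1 of every group, and Foxa2 was lowest in number 1 of WT. The sum of the 7 feeder fibroblast markers was lowest in number 3 of every group, at 33.9, 41.8 and 33.0 TPM, against 46.1 to 77.9 in the other libraries. Col3a1 alone was lowest in number 2 of every group. The sum of the 4 neural markers was highest in number 1 and lowest in number 3 of every group. It was 11.4, 4.45 and 3.31 TPM in WT, 7.16, 6.28 and 1.35 in CdxKO, and 7.76, 2.69 and 1.71 in T/BraKO. Pax6 and Neurog2, at a few counts, were highest in number 3 of CdxKO. The 5 paraxial mesoderm markers took no common order, with 46.9, 31.0 and 26.0 TPM in WT, 64.55, 14.4 and 42.55 in CdxKO, and 4.40, 4.40 and 6.03 in T/BraKO. Total counts were lowest in number 1 in every group, and the share of counts from ribosomal Rn45s was highest there, from 1.69% to 4.21% against 0.343% to 0.992% in numbers 2 and 3. The part of these in the differences between numbers was not tested, and in bulk RNA fewer cells of a type and less RNA per cell cannot be told apart.

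CdxKO was compared with WT to ask how the loss of CDX factors changed these genes (DESeq2 Wald test, genotype only, 9 libraries). Only Dusp9 passed, and it was higher in CdxKO, so that 1 of 10 genes was called against 0.693% of the 16737 genes tested. With the replicate number as a block it was again 1 of 10, against 3.4% of 13855 genes called higher. Dusp9, a phosphatase with a preference for ERK and a gene of the X chromosome (chrX:73639419-73643514, GRCm38), had 807, 572 and 670.3 normalised counts in WT and 1315, 1088 and 898 in CdxKO. Each CdxKO library was above each WT library, which held for 5.59% of the 12316 genes. The log2 fold change was 0.69 ± 0.19 SE (adjusted p = 0.0476), and 0.68 ± 0.11 (adjusted p = 3.2e-07) with the replicate number as a block. Without the block the call was lost in edgeR (adjusted p = 0.417, with 0.0846% of 18902 genes called), in the fit of the 6 libraries of these groups alone (adjusted p = 0.0551) and without WT replicate 2 or 3, CdxKO replicate 1 or 2 or T/BraKO replicate 1 (adjusted p from 0.101 to 0.664), and without all libraries numbered 1 or 2 (adjusted p = 0.886 and 0.450). With the block it was kept in edgeR (adjusted p = 0.00144, with 4.53% of 18902 genes called) and without the libraries of any 1 number (adjusted p from 1.2e-05 to 0.00727). The 460 X-linked genes with a mean of at least 50 moved little as a set, with medians of -0.02 for CdxKO and -0.0029 for T/BraKO relative to WT on the log2 scale. The Y-linked gene Ddx3y had 0 counts in every CdxKO library against 1664 to 1769 normalised counts in WT and 2117 to 2754 in T/BraKO, and Xist was between 5.02 and 16.5 in all 9 libraries (both genes were chosen after their values were seen).

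The other 9 genes did not pass against WT in CdxKO, with or without the block. Their log2 fold changes in the fit of genotype alone ran from -0.14 for Il17rd to 0.40 for Dusp6, and the median over the 10 genes was 0.11, against -0.0010 over the 12316 genes with a mean of at least 50. For Spry4 the SE was 0.95 without the block and 0.22 with it, for log2 fold changes of 0.0097 and -0.025. Dusp6 was not alike in the 3 pairs. Its log2 ratio of CdxKO to WT was 0.50 in the pair numbered 1 and 0.53 in the pair numbered 3, but -0.22 in the pair numbered 2. With the 3 libraries numbered 2 left out and the block kept, a setting chosen after the values were seen, Dusp6 was higher in CdxKO than in WT (log2 0.51 ± 0.08 SE, adjusted p = 2.0e-09), as was Dusp4 (0.26 ± 0.07, adjusted p = 0.00916). With all 9 libraries and the block, Dusp6 stood at 0.29 ± 0.25 (adjusted p = 0.682) and Dusp4 at 0.11 ± 0.08 (adjusted p = 0.620).

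T/BraKO was compared with WT for the loss of T. No member passed in the fit of genotype alone by DESeq2 or by edgeR, where 1.08% of 18900 and 0.391% of 18902 genes did. At an unadjusted DESeq2 p under 0.05 there was 1 of the 10, Dusp9 (adjusted p = 0.140), against 5.13% of 18900 genes. With the replicate number as a block, 4 of the 10 passed, 3 higher and 1 lower in T/BraKO, against 4.83% higher and 4.85% lower of 12773 genes. Etv4 (chr11:101769742-101785371) was higher in T/BraKO than in WT in all 3 same-numbered pairs, by 0.36, 0.77 and 0.45 on the log2 scale, and its log2 fold change was 0.52 ± 0.08 SE (adjusted p = 1.8e-09). Dusp9 had 1098, 1121 and 867 normalised counts in T/BraKO, each above every WT library, and its log2 fold change was 0.59 ± 0.11 (adjusted p = 1.0e-05). Dusp4 (chr8:34807297-34819894) was lower in all 3 pairs, by -0.44, -0.60 and -0.29, and stood at -0.45 ± 0.08 in the fit (adjusted p = 2.5e-06). With the block, the genes of 2 phosphatases thus went in opposite directions in T/BraKO, as did Etv4 and Dusp4, which both followed the order of library numbers.

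Etv4, Dusp9 and Dusp4 were also called by edgeR with the block (adjusted p from 0.000301 to 0.00236, with 8.05% of 18902 genes called) and by DESeq2 with the block without the libraries of any 1 number, with log2 fold changes of 0.40 to 0.60, 0.40 to 0.71 and -0.52 to -0.37. Spred1 was the 4th, at 0.24 ± 0.08 (adjusted p = 0.0455). Its call was lost in edgeR with the block (adjusted p = 0.0931), and without the libraries numbered 2 (adjusted p = 0.362) or 3 (adjusted p = 0.848). Etv5 was higher in all 3 pairs, by 0.24, 0.71 and 0.24, and stood at 0.41 ± 0.17 (adjusted p = 0.1003) in DESeq2 and at an adjusted p of 0.0238 in edgeR, both with the block. Without the libraries numbered 1, the block called Etv5 at 0.48 ± 0.12 (adjusted p = 0.00535) and Spry4 at 0.51 ± 0.16 (adjusted p = 0.0464) as well. Spry1 did not overlap between the groups either, each T/BraKO library being above each WT library, which held for 4.54% of the 12316 genes, but its log2 fold change was 0.13 ± 0.12 with the block (adjusted p = 0.567). Dusp6, Spry2, Spry4 and Il17rd had values of 0.05, 0.21, 0.39 and -0.05 with adjusted p from 0.310 to 0.939. The median over the 10 genes was 0.23 with the block, against 0.02 over all 12316 genes.

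**Figure D3:**
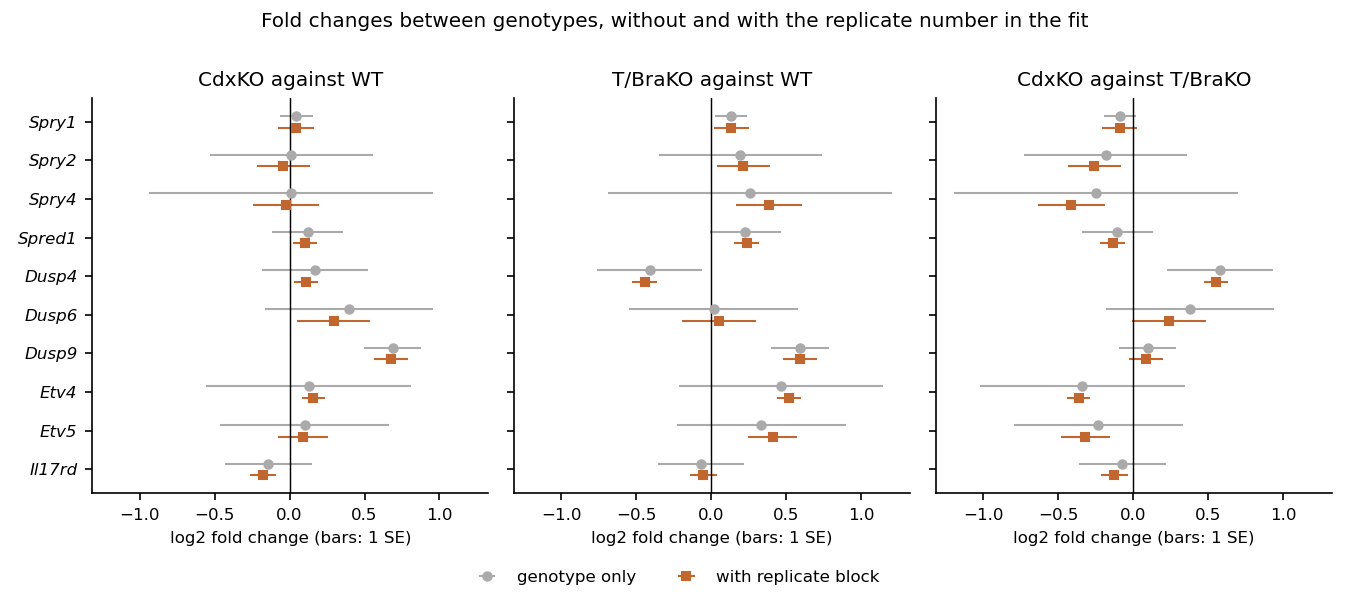
Log2 fold changes (x axis) of the 10 genes in the 3 comparisons of genotypes, without the replicate number in the fit (grey circles) and with it as a block (orange squares), with bars of 1 SE. The values lie close together, but the bars are shorter with the block for 9 of the genes, as in Spry4 of CdxKO against WT, where they go from 0.95 to 0.22, and Spry1 is the exception.

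CdxKO and T/BraKO were compared directly, which is the test of whether the changes against the shared WT libraries differed. In the fit of genotype alone no member passed by DESeq2 or by edgeR, where 3.48% of 16016 and 1.29% of 18902 genes did, and 0 of the 10 had an unadjusted DESeq2 p under 0.05, against 9.31% of 18900 genes. Without the libraries numbered 2, DESeq2 called Dusp4 in that fit too (adjusted p = 0.00503). With the block, Dusp4 was higher in CdxKO than in T/BraKO, by 0.63, 0.39 and 0.62 in the pairs and by 0.55 ± 0.08 SE in the fit (adjusted p = 4.9e-10), and Etv4 was lower, by -0.21, -0.49 and -0.38 in the pairs and -0.36 ± 0.08 in the fit (adjusted p = 6.2e-05). Thus 1 of 10 genes was called higher, against 7.75% of 14936 genes, and 1 of 10 lower, against 6.9%. In either direction it was 2 of 10, against 2187 of 14936 genes, so the count itself was near that over all genes. Both were kept in edgeR with the block (adjusted p = 0.000190 and 0.00200, with 14.8% of 18902 genes called) and without the libraries of any 1 number (adjusted p from 1.3e-16 to 0.000499 and from 0.00117 to 0.0451). Of the 7 feeder fibroblast markers, 3 were higher in CdxKO than in T/BraKO and 1 lower, with and without the block. Col1a1, a collagen gene, had a mean of 25.1 TPM in CdxKO and 6.52 TPM in T/BraKO, while Col3a1, another, had 2.26 and 2.55 TPM. The summed feeder level was 41.8 to 77.9 TPM in CdxKO and 33.0 to 54.5 TPM in T/BraKO, and its part in the differences of Dusp4 and Etv4 was not tested. Dusp9, higher in both mutants than in WT with the block, differed between them by 0.09 ± 0.11 (adjusted p = 0.713).

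The calls of 5 other genes between the mutants depended on which number was left out. Without the libraries numbered 2 and with the block, Dusp6 was higher in CdxKO than in T/BraKO (log2 0.57 ± 0.08, adjusted p = 2.6e-12), against 0.24 ± 0.25 (adjusted p = 0.611) in all 9 libraries. Without the libraries numbered 1, which leaves those numbered 2 and 3, Spry2, Spry4, Spred1 and Etv5 were lower in CdxKO, at -0.43, -0.63, -0.30 and -0.48 with adjusted p from 0.00223 to 0.0266. In all 9 libraries with the block they stood at -0.26, -0.41, -0.13 and -0.32 with adjusted p from 0.207 to 0.384, though edgeR with the block called Etv5 (adjusted p = 0.0450). In the pair numbered 2 those 4 genes were at log2 ratios of CdxKO to T/BraKO of -0.73, -1.004, -0.43 and -0.75, and in the pair numbered 1 at 0.10, 0.055, 0.19 and 0.0049.

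Etv4 and Dusp4 can also be set against each other inside a library. The TPM of Etv4 divided by that of Dusp4 was 0.521, 0.295 and 0.656 in WT, 0.505, 0.411 and 0.550 in CdxKO, and 0.907, 0.758 and 1.097 in T/BraKO. Every T/BraKO library was thus above every library of the other groups, while WT and CdxKO overlapped. The mean was 0.491 ± 0.182 (SD, n = 3) for WT, 0.489 ± 0.0706 for CdxKO and 0.921 ± 0.170 for T/BraKO. Etv5 against Dusp6 gave 0.684 ± 0.0899, 0.602 ± 0.0733 and 0.874 ± 0.0265, again with no overlap of T/BraKO with the other groups. In the other ratios taken, T/BraKO was not apart from both other groups. Dusp4 against Dusp6 gave 0.949 to 1.170 in T/BraKO, 1.126 to 1.697 in CdxKO and 1.291 to 1.680 in WT. There T/BraKO overlapped CdxKO but not WT. Etv4 against Etv5 gave 0.852 to 1.253, 1.016 to 1.113 and 0.823 to 1.104 in the same order, with overlap between all groups. All 4 ratios were chosen with the values known and are given without a test.

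**Figure D4:**
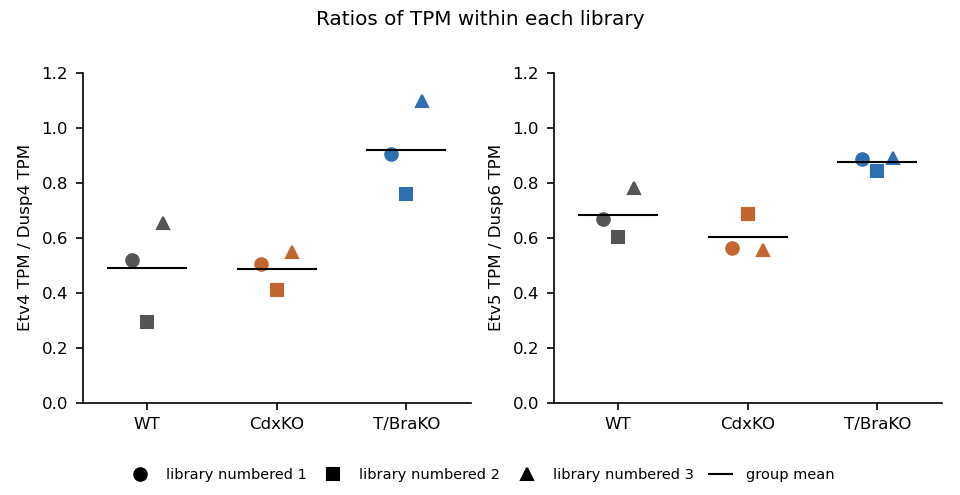
TPM of Etv4 over that of Dusp4 (left y axis) and of Etv5 over that of Dusp6 (right y axis) in each library, with the marker giving the library's number and the bar the group mean. T/BraKO libraries lie between 0.758 and 1.097 on the left and between 0.844 and 0.892 on the right, above all WT and CdxKO libraries.

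Upstream of these genes stand the FGF ligands and receptors. Among 25 FGF ligand and receptor genes, 1 was higher and 1 lower in T/BraKO than in WT, against 1.08% of 18900 genes called. In CdxKO 0 were called, against 0.693% of 16737. The block called 1 higher and 3 lower in T/BraKO, of 11 with an adjusted p, against 617 higher and 620 lower of 12773 genes. In CdxKO it called 0 higher and 2 lower, of 14 with an adjusted p, against 471 higher and 265 lower of 13855 genes. Fgf8, the main FGF of the primitive streak, had 857, 642 and 677 normalised counts in WT, 547, 317 and 556 in CdxKO, and 195, 233 and 309 in T/BraKO. It fell by 1.56 on the log2 scale in T/BraKO (SE 0.26, adjusted p = 5.0e-07), and stood at -0.62 ± 0.25 in CdxKO (adjusted p = 0.572), or -0.65 ± 0.17 with the block (adjusted p = 0.00401). It was higher in CdxKO than in T/BraKO by 0.94 ± 0.26 (adjusted p = 0.01003) or 0.91 ± 0.17 with the block (adjusted p = 3.6e-06), and the call without the block was lost in edgeR (adjusted p = 0.1100) and without CdxKO replicate 1 or 3 or T/BraKO replicate 1 (adjusted p from 0.127 to 0.147), and without all libraries numbered 1 (adjusted p = 1.00) or 3 (adjusted p = 0.0711).

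Fgf17, of the same ligand subfamily as Fgf8, went the other way. It had 224, 209 and 293 normalised counts in WT, 211, 186 and 244 in CdxKO, and 362, 464 and 416 in T/BraKO, and was higher in T/BraKO than in WT by 0.78 ± 0.19 (adjusted p = 0.00627), and CdxKO stood against T/BraKO at -0.97 ± 0.16 with the block (adjusted p = 8.9e-08). Its call against WT was lost in edgeR (adjusted p = 0.169), without WT replicate 1 or 2 or T/BraKO replicate 2 or 3 (adjusted p from 0.0752 to 0.141), without all libraries numbered 1 or 2 (adjusted p = 0.604 and 0.404) and, with the block, without the libraries numbered 2 (adjusted p = 0.0696). Fgf4 had 85 to 130 counts in WT, 26 to 76 in CdxKO and 31 to 73 in T/BraKO, and passed with the block alone, at -1.27 ± 0.36 and -1.36 ± 0.36 (adjusted p = 0.0123 and 0.00371). Fgf15 passed in T/BraKO with the block (-0.98 ± 0.31, adjusted p = 0.0240). Fgf5, an epiblast ligand, had 153 to 833 in WT, 67 to 858 in CdxKO and 408 to 1114 in T/BraKO, and was lower in CdxKO than in T/BraKO with the block (-1.26 ± 0.46, adjusted p = 0.0408). Fgfr1, the main receptor gene here, lay between 7362 and 9732 in all 9 libraries and did not pass against WT in either mutant, at 0.15 ± 0.10 in CdxKO and -0.03 ± 0.10 in T/BraKO. With the block it was higher in CdxKO than in T/BraKO by 0.18 ± 0.06 (adjusted p = 0.0351).

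**Figure D5:**
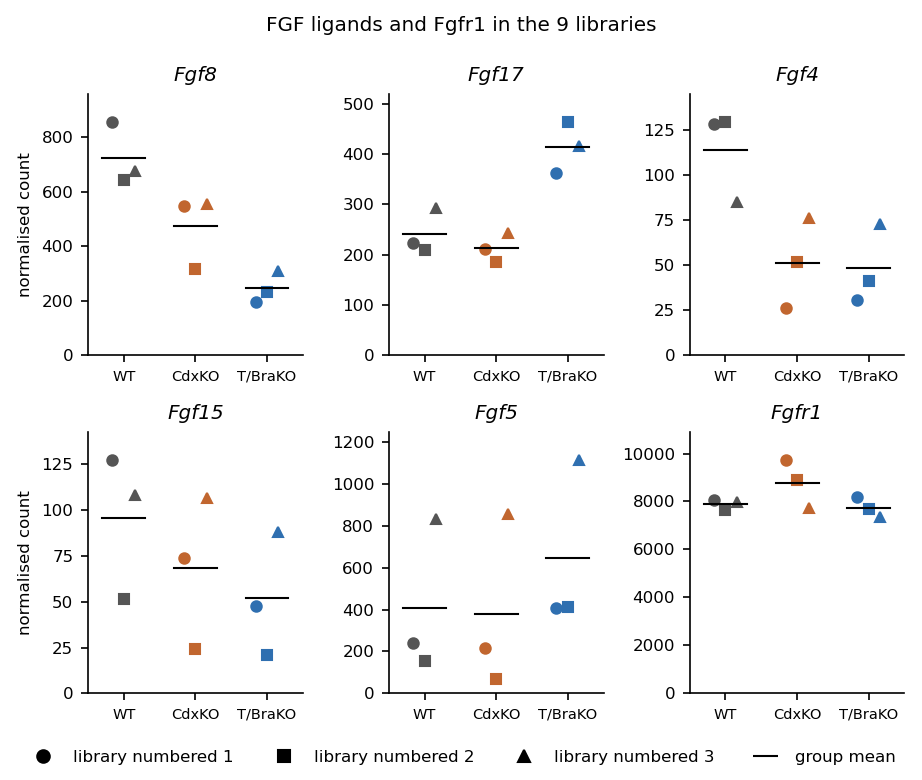
Normalised counts (y axis, linear from 0) of 5 FGF ligand genes and Fgfr1 in each library by genotype, with the marker giving the library's number and the bar the group mean. The group mean of Fgf8 steps down from WT to CdxKO to T/BraKO, and Fgf17 is highest in the 3 T/BraKO libraries.

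Over the 108 genes of the 5 pathway lists, 14 in CdxKO and 11 in T/BraKO had an unadjusted DESeq2 p under 0.05 against WT without the block, where 4.49% and 5.13% of 18900 genes did, and edgeR without the block called 0 and 1. Among 25 genes of signal transduction, 0 passed against WT in either mutant, and with the block 2 were higher in CdxKO, and 2 were higher and 2 lower in T/BraKO. Over all genes the block called 3.4% higher in CdxKO, and 4.83% higher and 4.85% lower in T/BraKO. Gab1, the docking protein that links receptors to SHP2, had 4352, 4858 and 4497 normalised counts in WT, 5662, 6015 and 5805 in CdxKO, and 3363, 4274 and 3269 in T/BraKO. Each CdxKO library was above each WT library, which held for 5.59% of the 12316 genes. Gab1 was higher in CdxKO than in T/BraKO by 0.68 ± 0.12 (adjusted p = 2.2e-06), a call lost without all libraries numbered 1 (adjusted p = 0.0660), and with the block it stood at 0.35 ± 0.07 in CdxKO and -0.34 ± 0.07 in T/BraKO against WT (adjusted p = 2.2e-05 and 4.8e-05). Map2k1 (MEK1) was higher with the block in CdxKO, by 0.22 against either group.

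The 15 other feedback genes held no call without the block by DESeq2 or edgeR, with 4, 1 and 2 at an unadjusted DESeq2 p under 0.05 in CdxKO, in T/BraKO and between the mutants. Over all genes those unadjusted shares were 4.49%, 5.13% and 9.31% of 18900. With the block 3 were higher and 1 lower in CdxKO than in WT, against 471 and 265 of 13855 genes. In T/BraKO 2 were higher and 2 lower, against 617 and 620 of 12773 genes. Dusp5, a nuclear ERK phosphatase, had 207, 126 and 211 normalised counts in WT and 411, 240.2 and 325 in CdxKO (0.84 ± 0.20, adjusted p = 0.00147), and Dusp14 was higher by 0.66. Errfi1, an inhibitor of EGF receptors, was higher with the block in both mutants, by 0.39 and 0.31, and Cnksr3 was lower in both, at -0.38 and -0.33. Dusp2 was 2.09-fold higher in CdxKO than in T/BraKO with the block (adjusted p = 0.000167).

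Of 24 other ETS genes, 0 passed against WT without the block. With it 1 of 18 with an adjusted p was higher in CdxKO, against 3.4% of 13855 genes. In T/BraKO 4 of 16 were lower, against 4.85% of 12773 genes. Between the mutants 3 were higher in CdxKO without the block, against 404 of 16016 genes over all, and edgeR called 0 of the ETS genes. Each of the 3 was lost with single libraries left out (Elk3 and Elf4 without CdxKO replicate 1 or T/BraKO replicate 3, among others, and Etv2 without 6 of the 9, with adjusted p from 0.0527 to 0.331 over the 3 genes). Leaving out all libraries of 1 number ended the calls of Elk3 (numbers 1 and 3), Elf4 (1 and 2) and Etv2 (1, 2 and 3), and with the block that of Etv2 was ended without number 2 or 3 (adjusted p = 0.386 and 0.333). Elk3, a ternary complex factor, had 873, 632 and 735.5 normalised counts in CdxKO and 498, 403 and 331 in T/BraKO (0.86 ± 0.24, adjusted p = 0.0145). Elf4 differed by 0.67 ± 0.19 (adjusted p = 0.0151) and Etv2, an ETS factor of blood and vessel progenitors, by 0.71 ± 0.22 (adjusted p = 0.0455). In T/BraKO against WT with the block, Etv2, Elk3, Ets2 and Fli1 were lower, at -0.72, -0.52, -0.47 and -1.48, so that these 4 ETS genes and Etv4 went in opposite directions. Paraxial mesoderm marker sums were also lower in T/BraKO, as given above, and their part was not tested.

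No immediate early gene among 19 passed in a comparison of genotypes without the block by DESeq2 or edgeR, and 5, 1 and 2 had an unadjusted DESeq2 p under 0.05 in CdxKO, in T/BraKO and between the mutants. Over all genes those unadjusted shares were 4.49%, 5.13% and 9.31% of 18900. With the block, Fosl1, Fosl2, Ier3 and Ier5 were higher in CdxKO than in WT, by 1.01, 0.61, 0.61 and 0.41 (adjusted p from 9.0e-06 to 0.0478), and Myc and Srf were higher in T/BraKO, by 1.02 and 0.27 (adjusted p = 0.00576 and 0.0181). The block called 3.4% of 13855 genes higher in CdxKO and 4.83% of 12773 in T/BraKO. Fosl2 was higher in CdxKO than in T/BraKO as well, by 0.53 ± 0.11 (adjusted p = 6.2e-05), and Srf lower, at -0.27.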

How the data were processed

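Expression was measured by RNA-seq of polyA RNA (single-end reads of 76 bp that keep the strand). Per the labels and methods, the authors trimmed the reads with cutadapt 1.16, aligned them to mm10 with STAR 2.5.2a and estimated gene counts with RSEM 1.3.0, and the deposited values used here are the expected counts and the TPM of each gene in each library. Expected counts were rounded and fitted with DESeq2 1.42.0 in R 4.3.3 (Wald test, genotype only, 9 libraries, adjusted p of at most 0.05, log2 fold changes unshrunken), with edgeR 4.0.16 as an alternative. The study's methods name DESeq2 and this threshold, and the other settings were chosen here. TPM values were used for levels of genes per length. The replicate numbers pair the libraries: over 12316 genes, deviations from the group means correlated between 0.532 and 0.814 in all 9 same-numbered pairs of libraries of different groups and between -0.690 and 0.134 in the 18 others, so the fit with the number as a block stands beside each result that it changes. The numbers come from the titles, which call the libraries biological replicates. The study's methods state in general that its data come from independent experiments, and the labels do not say what a number shares, so p-values measure the spread between these libraries. No 2 libraries of a group agreed within sampling noise. The fits were also run on simulated data, in which differences between library numbers were set smaller than those of most of the 10 genes. That run does not cover the setting of these genes. The 10 genes and the pathway and marker lists were chosen with earlier results of these data known, so counts over them carry no test of their own. Named pathway genes were up to 4 of each list and comparison with the largest fold change among those with an adjusted p of at most 0.05 with or without the block and a group mean of at least 50, together with 5 ligands and Fgfr1. Alternatives were TMM factors, a filter of 10 counts in 3 libraries, the block, fits of 6 libraries, an adjusted p of at most 0.01 and leaving out each library. Leaving out all libraries of 1 number, and the comparison of numbers, were added after seeing the data. Gene positions are from GENCODE M21 (GRCm38, the assembly named mm10).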

Additional observations from a re-analysis of the deposited data

Results flagged for a closer look

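Dusp4 and Etv4 were flagged because CdxKO and T/BraKO differed in the direct test with the replicate number as a block. That fit called 2 of the 10 genes, against 2187 of 14936 over all genes. Dusp4 was higher in CdxKO by 0.55 on the log2 scale and Etv4 was lower, at -0.36, and in the fit without the block the same differences were 0.58 and -0.34 with adjusted p of 0.615 and 0.958.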

How the results depend on the processing

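The block added calls, and edgeR, the stricter threshold and leaving out libraries ended some. Counts are given as higher and lower calls for 3 comparisons in the order of the report (CdxKO with WT first, T/BraKO with WT second, CdxKO with T/BraKO last). For feedback and ETS genes, genotype alone gave 1 and 0, 0 and 0, and 0 and 0, and TMM factors and the filter on low counts left these as they were. The block gave 1 and 0, 3 and 1, and 1 and 1, edgeR with the block 1 and 0, 3 and 1, and 1 and 2, and 6 libraries with the block 1 and 0, 3 and 1, and 1 and 1. The single call in the first comparison, Dusp9, was lost, leaving 0, in edgeR, in 6 libraries and at an adjusted p of at most 0.01. Leaving out libraries, with or without the block, gave 0 to 3 higher in the first comparison, 0 to 5 higher and 0 to 1 lower in the second, and 0 to 2 higher and 0 to 5 lower in the last. The cause was not tested.

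For the 108 other pathway genes genotype alone gave 0 and 0, 1 and 1, and 5 and 1, the block 10 and 3, 7 and 11, and 15 and 4, edgeR with the block 10 and 4, 9 and 14, and 18 and 6, and 6 libraries with the block 14 and 3, 5 and 10, and 10 and 2. Without the block, 6 libraries gave 5 higher in the first comparison and 2 lower in the second, edgeR gave 0 higher in the second and 1 higher in the last, and the threshold of 0.01 gave 1 higher in the last. Leaving out libraries gave 0 to 7 and 0 to 4, 0 to 3 and 1 to 7, and 0 to 17 and 1 to 5.

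Over all genes, genotype alone called 56 and 60, 28 and 177, and 404 and 154, the block 471 and 265, 617 and 620, and 1157 and 1030, edgeR with the block 493 and 364, 681 and 841, and 1454 and 1343, and 6 libraries with the block 447 and 204, 403 and 465, and 779 and 523. edgeR alone called 4 and 12, 7 and 67, and 180 and 63, and the threshold of 0.01 gave 28 higher in the first comparison and 96 lower in the last. Leaving out libraries gave 9 to 369 and 23 to 157, 7 to 188 and 74 to 329, and 124 to 937 and 54 to 502. In number 1 against 2, the fits without WT, CdxKO or T/BraKO called 958, 1111 and 1335 genes higher and 765, 979 and 1072 lower. In number 3 against 2, the fit without WT called 1798 higher and 1588 lower, and that without T/BraKO 1974 lower.

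Directions that reversed were those of values that did not pass with genotype alone. In the first comparison Spry2 was at -0.043 with the block, -0.046 in edgeR with the block and -0.051 in 6 libraries with the block. Spry4 was at -0.00012 with TMM factors, -0.0015 in edgeR, -0.025 with the block, -0.022 in edgeR with the block and -0.028 in 6 libraries with the block, and T at -0.011 in 6 libraries with the block. Leaving out libraries moved the log2 fold change there from -0.41 to 0.35 for Spry2, -0.62 to 0.71 for Spry4, -0.28 to 0.46 for T, -0.020 to 0.080 for Spry1, -0.032 to 0.34 for Spred1, -0.12 to 0.47 for Dusp4, -0.26 to 0.57 for Etv4, -0.23 to 0.50 for Etv5, -0.33 to 0.13 for Il17rd and -1.52 to 0.96 for Fgf5. In the second comparison the ranges were -0.19 to 0.53 for Spry2, -0.43 to 0.96 for Spry4, -0.28 to 0.28 for Dusp6, -0.26 to 0.075 for Il17rd and -0.069 to 0.014 for Fgfr1. In the last they were -0.60 to 0.20 for Spry2, -0.88 to 0.43 for Spry4, -0.30 to 0.11 for Spred1, -0.051 to 0.22 for Dusp9, -0.73 to 0.092 for Etv4, -0.57 to 0.12 for Etv5, -0.23 to 0.20 for Il17rd, -0.29 to 0.52 for Fgf4 and -0.099 to 1.00 for Fgf15. With 3 libraries a group, a p that missed the threshold does not show that a gene was equal between groups.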
